A study of Homo sapiens with 46 samples.

Results

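Mesoderm cells were compared with the human pluripotent stem cells (hPSC) they came from, in RNA taken from whole nuclei. The comparison holds 6 of the 46 samples of the series, 3 mesoderm nucleus libraries and 3 hPSC nucleus libraries, chosen by the cell type and the fraction in their labels and by no measured value. Both groups are H1, an established line of human embryonic stem cells. The hPSC were kept undifferentiated on Matrigel in mTeSR1 medium. For mesoderm, H1 cells at partial confluency were moved to DMEM/F12 with fetal bovine serum, GlutaMax, non-essential amino acids, b-mercaptoethanol, VEGF at 100 ng/ml, BMP4 at 100 ng/ml and bFGF at 10 ng/ml. Activin A at 100 ng/ml was present for the first 24 hours only, and collection followed on day 5. In both groups the plasma membrane was opened with the detergent NP-40, nuclei were spun through a sucrose cushion in buffers with α-amanitin, and nuclear RNA was taken from a part of that pellet. The labels name no sorting step and do not say whether the 3 libraries of a group came from separate cultures, so p-values measure the spread between these libraries, which may be technical.

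Pluripotent stem cells are held in their state by a small network of transcription factors, with POU5F1, SOX2 and NANOG at its centre, under activin and FGF signals. BMP4 binds type I and type II serine/threonine kinase receptors, which phosphorylate SMAD1, SMAD5 and SMAD9; with SMAD4 these switch on targets such as the ID genes, MSX2, SMAD7 and BAMBI, several of which damp the same pathway. In H1 cells, BMP4 with activin is known to induce mesoderm and, where BMP4 persists, also amnion-like and trophoblast-like cells. Nuclear RNA holds unspliced and retained transcripts besides mRNA on its way out. The outer nuclear membrane is continuous with the endoplasmic reticulum (ER), where mRNAs of secreted and membrane proteins are translated.

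The nucleus libraries held between 7178789 and 15767053 counts, and replicates correlated at 0.978 or above within a cell type against 0.763 to 0.803 between cell types (Pearson, log2 CPM). CPM, counts as parts of a library total of 1000000, are given here after TMM scaling, which allows for differences in composition; CPM of genes listed in 1 table only, and those called plain CPM, are not scaled. Each cell type was counted on transcripts assembled in that cell type. The hPSC table lists 32819 transcripts of 15125 genes and that of mesoderm lists 36407 transcripts of 15018 genes, and only 13252 Ensembl transcripts, of 9893 genes, stand in both. A difference between the cell types is therefore also a difference between 2 transcript lists, and each gene was tested a second time on the transcripts that both tables list. MALAT1 and NEAT1, long noncoding RNAs that mark nuclei, went against the fraction label in hPSC: MALAT1 averaged 81.6 plain CPM in the nucleus and 232 in the cytoplasm, and NEAT1 1.22 and 3.27. In mesoderm both were higher in the nucleus, MALAT1 at 318 against 172 plain CPM and NEAT1 at 82.3 against 38.9.

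The noncoding RNA that hosts the miR-302/367 cluster, MIR302CHG (chr4:112646476-112650051 on hg38, minus strand), was listed in the hPSC table only, at 398, 483 and 425 CPM in the 3 libraries. All 5 microRNAs below lie inside it on the same strand, and the mature RNAs are shown because the seed, bases 2 to 8 in capitals, is what pairs with target mRNAs. Sequences are RefSeq's (GRCh38.p14), 5′ to 3′; the libraries were not made to capture mature microRNAs and give no value for them.
miR-302a-3p: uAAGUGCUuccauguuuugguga
miR-302b-3p: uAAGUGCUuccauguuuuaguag
miR-302c-3p: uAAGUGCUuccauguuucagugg
miR-302d-3p: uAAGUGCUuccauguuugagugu
miR-367-3p: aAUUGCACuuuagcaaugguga
The first 4 share the seed AAGUGCU and differ near their 3′ ends, and miR-367-3p has the seed AUUGCAC. The miR-302 family is known as the most abundant microRNA family of pluripotent stem cells. A gene that stands in 1 table only cannot be read as absent from the other cells, since a transcript that was not assembled there was not counted.

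Nuclear RNA differed widely. Of 12179 genes tested, 8624 passed the test (70.8%; edgeR's quasi-likelihood test, Benjamini-Hochberg adjusted p under 0.05), 4302 higher in mesoderm (35.3%) and 4322 lower (35.5%). With a change of at least 2-fold asked for as well, 4051 remained (33.3%). So many genes passed that a count within a gene list is read below against those shares, not against 0. The libraries of the groups did not overlap in 73.8% of all tested genes, so a lack of overlap is common here. The median log2 change over all genes was -0.01, and the middle 80% of genes lay between -1.34 and 1.57. Of 6774 called genes that could be tested on the transcripts both tables list, 6125 kept their sign there and 4848 were called again with that sign, while 270 were called with the opposite one. With counts scaled to library totals alone, 5102 genes were higher and 3407 lower, with all genes shifted by a median of 0.17 on the log2 scale, so small changes are read only relative to the bulk of genes. On log2(TPM + 1) values as deposited, all genes were shifted by a median of 0.78, and 8315 were higher and 1191 lower; after each library was centred on its median, an alternative chosen after seeing the data, 3564 were higher and 4857 lower. Directions given below are those of the counts after TMM scaling, and where a list's split turns on uncentred TPM this is said. Of the genes called below, CLDN3, FGFR1, FLT1, HNRNPA1, KDELR1, SSR1 and the SNORD116 genes did not pass on uncentred TPM. ACTB, BMPR1A, HSP90B1, ID3, LIN28B and SMAD5 did not pass in a fit over the nuclei of all 4 cell types of the series, and FTX did not pass on shared transcripts.

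**Figure D1:**
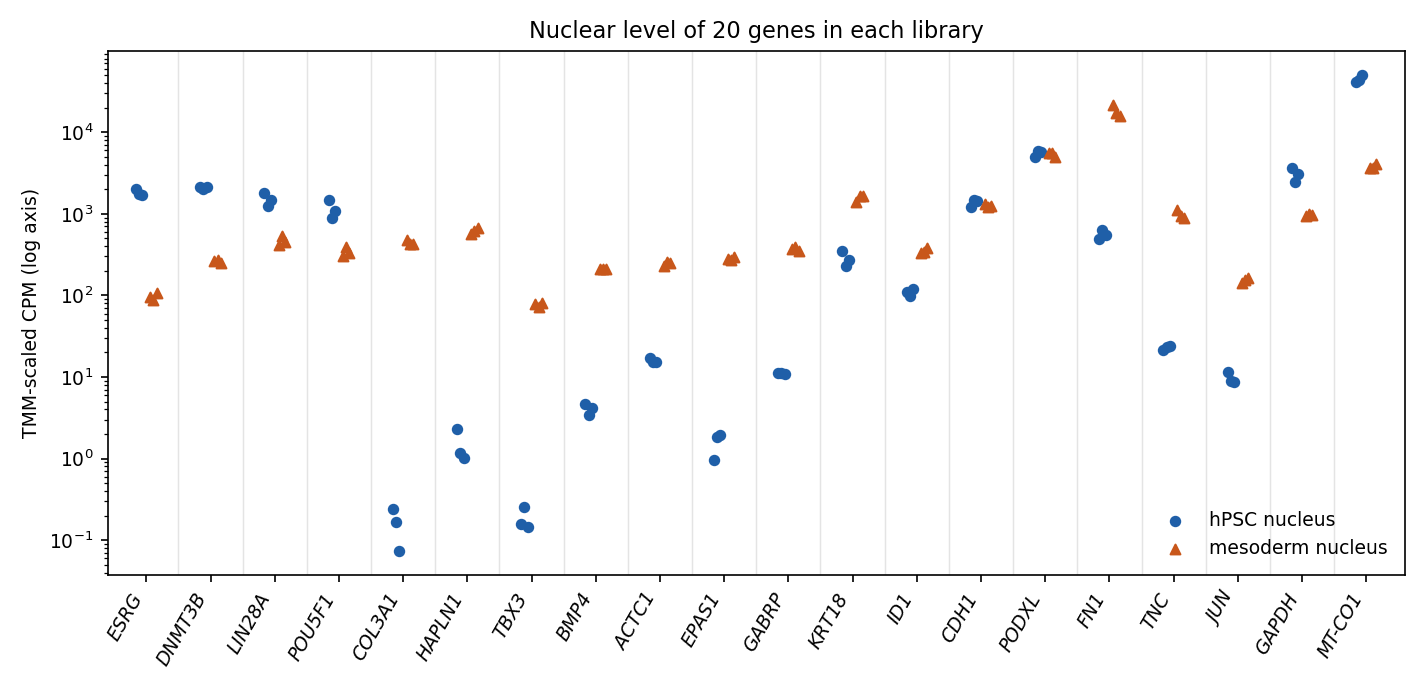
Level of 20 genes in each nucleus library, as TMM-scaled CPM on a log axis, with circles for the 3 hPSC libraries and triangles for the 3 mesoderm libraries. The pluripotency genes ESRG, DNMT3B, LIN28A and POU5F1 and the mitochondrial MT-CO1 sit lower in mesoderm, COL3A1, HAPLN1 and TBX3 rise from near 0, and CDH1 and PODXL overlap between the groups.

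Genes of the extracellular matrix and of mesoderm were among the 12 largest rises. COL3A1, the chain of fibrillar type III collagen (chr2:188974320-189012746, plus strand), stood at 0.237, 0.169 and 0.0727 CPM in hPSC and at 481, 432 and 423 CPM in mesoderm. With hPSC at the level of a few reads, it was at least 1886-fold higher (edgeR adjusted p = 5.12e-14). HAPLN1, which links hyaluronan to proteoglycans (chr5:83637805-83721613, minus strand), went from 2.29, 1.18 and 1.02 to 564, 612 and 672 CPM, a 410.0-fold rise (SE 0.22 on the log2 scale). TBX3, a T-box repressor of limb and heart, went from 0.158, 0.253 and 0.145 to 79.4, 71.5 and 80.95 CPM, at least 327-fold. All 3 rose on shared transcripts too (edgeR adjusted p = 9.34e-08, 2.09e-07 and 2.51e-07). LRP2, an endocytic receptor, went from 0.316, 0.59 and 0.727 to 331, 285 and 285 CPM, but no transcript of it stands in both tables.

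The other 8 of the 12 largest rises were CNTN4 (a neural cell adhesion molecule, at least 169-fold), ZFP14 (a zinc finger protein, 67.8), RASGEF1B (an exchange factor of Ras-like proteins, 63.9), TCIM (58.8), MTMR7 (a lipid phosphatase, 55.2), SENP7 (a SUMO protease, 136), DNAJC21 (a cochaperone of ribosome assembly, 239) and the pseudogene CROCCP3 (149.6). Each of them was at 0 to 3 reads per library in hPSC, and these values are lower bounds. DNAJC21 and SENP7 are genes that most cells use, and the part of the transcript lists in their levels near 0 in hPSC nuclei was not tested, since the tables share no transcript of either. Of the 12, only COL3A1, HAPLN1, TBX3 and MTMR7 have a transcript in both.

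Among the 12 largest falls was SFT2D3, a vesicle transport protein, which went from 36.9, 33.2 and 40.5 CPM in hPSC to 0 in every mesoderm library, at least 119-fold. FGF19, a secreted FGF of the hPSC themselves and of embryonic tissues (chr11:69698232-69704642, minus strand), fell from 28.01, 21.9 and 25.7 to 0.0771, 0.135 and 0 CPM, at least 81.5-fold (edgeR adjusted p = 4.03e-11). HDAC2-AS2, an antisense RNA at HDAC2, went from 878, 566 and 639 to 1.16, 0.944 and 0.975 CPM, 659.7-fold, and overlaps other transcripts, so its counts depend on how reads were assigned. Both SFT2D3 and FGF19 fell on shared transcripts too (edgeR adjusted p = 3.36e-06 and 1.64e-06). The remaining 9 were MSH5-SAPCD1 (a readthrough transcript, at least 61.1-fold), SERF1A (at least 50.3-fold, with a near-identical copy, SERF1B, so uncertain), LHX4 (a LIM homeobox factor, 39.3), HRH2 (a histamine receptor, 44.8), PFKFB2 (an enzyme of glycolysis control, 106-fold), LIMK1 (a cofilin kinase, 96.6), SLC13A3 (a dicarboxylate transporter, 75.6), TCTN2 (a cilium transition zone protein, 75.1) and KLHL3 (a ubiquitin ligase adaptor, 72.6). Of the 12, only SFT2D3, FGF19, SERF1A and PFKFB2 have a transcript in both tables, and for PFKFB2 it was too low to test.

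Some 3484 tested genes have exactly the same transcripts in both tables, and 2425 of them were called. Among them, by size and chosen after their values were seen, EPAS1, the hypoxia-inducible factor HIF-2α, rose from 0.949, 1.86 and 1.96 to 280.1, 271 and 292 CPM. COL12A1 and FLNC, a fibril-associated collagen and an actin crosslinker, rose 32.2-fold and 28.5-fold, and GAS1, a hedgehog coreceptor, 25.6-fold. Falls of this kind were seen in CNMD, an angiogenesis inhibitor of cartilage (142, 139 and 156 to 3.01, 3.101 and 3.22 CPM), and STC1, a secreted glycoprotein of calcium and phosphate control (68.99, 75.9 and 81.5 to 1.85, 1.62 and 2.05 CPM). No library of one group reached the level of the other in any of these, which was also so for 73.8% of all tested genes.

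**Figure D2:**
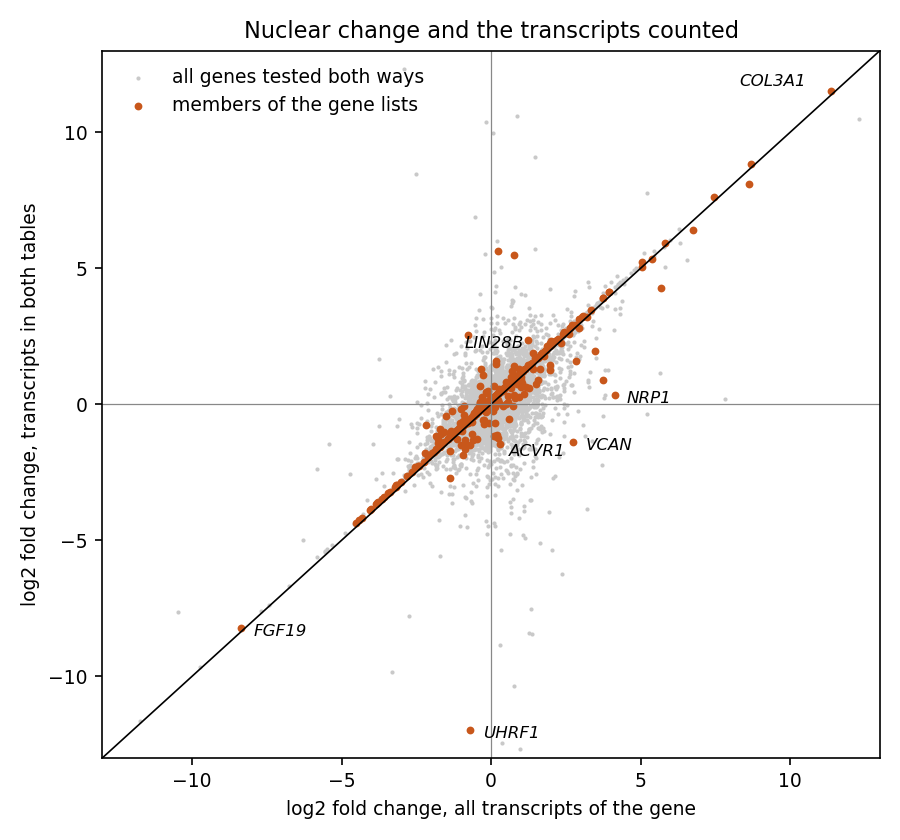
Log2 fold change of each gene on all its transcripts (x axis) against that on the transcripts listed in both tables (y axis), with the diagonal as a line. Grey points are all genes tested both ways and orange points the members of the gene lists; COL3A1 and FGF19 lie on the diagonal, while VCAN (2.74 against -1.39), NRP1 (4.13 against 0.35) and UHRF1 (-0.70 against -11.97) lie far from it.

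The pluripotency network was lower in mesoderm. Of 38 listed genes, 24 could be tested; 20 fell, none rose and 4 did not pass, with a median log2 change of -1.33, beside 35.5% of all genes lower and a median of -0.01 (on uncentred TPM, 11 fell and 8 rose). ESRG, a noncoding RNA of human pluripotent cells driven by an endogenous retrovirus, stood at 2013, 1740.5 and 1723 CPM in hPSC and 96.5, 88.3 and 107 CPM in mesoderm. The groups lie far apart: it fell 18.7-fold (log2 change -4.23, SE 0.14, edgeR adjusted p = 2.58e-12). DNMT3B, the de novo DNA methyltransferase of the epiblast, went from 2145, 1995 and 2163 to 263, 268 and 249 CPM, a 8.08-fold fall (SE 0.12 on the log2 scale, edgeR adjusted p = 1.55e-11). POU5F1, the factor OCT4 (chr6:31164337-31180731, minus strand), kept a clear nuclear level: 1488, 888 and 1093 CPM in hPSC and 303, 394 and 331 CPM in mesoderm. Its fall was 3.38-fold (log2 change -1.75, SE 0.17, edgeR adjusted p = 3.32e-07), with no overlap; POU5F1 has near-identical retrocopies that can share its reads.

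Several members fell by a similar size. LIN28A, which blocks let-7 processing, fell 3.23-fold, VRTN 3.55-fold, DPPA4 3.76-fold and TRIM71, an RNA-binding ubiquitin ligase, 2.84-fold. The germline and pluripotency factor DPPA2 was low to begin with, at 6.01, 2.28 and 3.197 CPM, and fell to 0.154, 0.135 and 0.195 CPM, at least 12.4-fold. Falls of SALL4 and ZFP42 were small, -0.62 and -0.66 on the log2 scale, and turned to 0.37 and 0.25 on uncentred TPM. PODXL, the sialomucin that carries the TRA-1-60 epitope, was at 4948, 5833 and 5655 CPM in hPSC and 5605, 5626 and 5006 CPM in mesoderm, a change of -0.02 (SE 0.11), and the groups overlapped; on TPM it was higher, by 2.12 uncentred and 1.21 centred. L1TD1 (-0.08, SE 0.11), JARID2 (-0.19, SE 0.10) and ESRP1 (-0.10, SE 0.10) did not pass either. On shared transcripts 12 of 19 members fell and 2 were higher, LIN28B (-0.33 on all transcripts, 1.30 on shared ones) and ESRP1 (0.48).

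The remaining 14 members were listed in the hPSC table only and so have no fold change. Their hPSC levels show which parts of the network the mesoderm table lacks. SOX2 stood at 332, 340.2 and 350.3 CPM, NANOG at 59.3, 38.9 and 47.7 CPM, and TDGF1, the Nodal coreceptor Cripto, at 663, 646 and 726 CPM. ZIC2, a zinc finger factor of the primed state, averaged 139 CPM, and FOXD3 35.4 CPM. The noncoding LINC00678 averaged 321 CPM.

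Genes of lateral and cardiac mesoderm were higher. All 11 of the 44 listed genes that stood in both tables and could be tested rose, with a median log2 change of 3.95; 22 more were in the mesoderm table only and 11 in neither. Standing in both tables does not need a level in hPSC nuclei, and the count filter can be passed through either group. COL3A1, TBX3 and MSX2, at or under 0.633 CPM in every hPSC nucleus library, passed it through mesoderm. A fall could not have been called for these genes. Beside COL3A1, HAPLN1 and TBX3, the homeobox BMP target MSX2 went from 0.633, 0.169 and 0.436 to 43.1, 46.1 and 50.9 CPM, a 109-fold rise. ACTC1, cardiac α-actin, went from 17.1, 15.4 and 15.1 to 233, 255 and 247 CPM, 15.4-fold (edgeR adjusted p = 6.67e-13). The smooth muscle genes ACTA2 and TAGLN rose 9.15-fold and 7.09-fold, and TNNT2, cardiac troponin T, 3.89-fold. PDGFRA and PDGFRB, receptors of mesodermal progenitors, went from 1.53 to 10.6 and from 44.1 to 217 CPM on average. The summed level of the whole list was 165 to 195 CPM in hPSC and 3034 to 3215 CPM in mesoderm.

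Among the 22 listed in mesoderm only, factors of the lateral plate and of the heart fields were present at moderate levels. HAND1, a bHLH factor of lateral mesoderm and extraembryonic tissue, stood at 26.6, 30.9 and 34.3 CPM, and ISL1, a LIM homeobox factor of the second heart field, at 24.3, 33.8 and 31.7 CPM. NR2F2, an orphan receptor of atrial and venous mesoderm, averaged 125 CPM, the proteoglycan LUM 125, MEIS1 38.001, MEIS2 35.9 and IRX3 23.9 CPM. NKX2-5 (3.48 CPM), GATA6 (3.21 CPM) and WT1 (1.67 CPM) were low. GATA4, HAND2, TBX5, TBX20 and MEF2C stood in neither table. The label mesoderm is thus met by some of its markers, and several that define cardiac mesoderm are not listed.

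Many markers of earlier and of other fates were not listed. Of 25 genes of the primitive streak and nascent mesoderm, EOMES, MESP1, MESP2 and GSC are among 11 in neither table, and TBXT was in the mesoderm table at 0, 0.279 and 0.301 CPM. Of 35 endothelial and blood-forming genes, 17 including PECAM1, TAL1 and CD34 were in neither table. KDR, the main VEGF receptor of endothelial progenitors, was listed in the hPSC table only, at 391, 463 and 425 CPM. GATA2 and RUNX1, listed in mesoderm only, averaged 19.1 and 17.5 CPM. No HOX gene could be tested: 28 of 33 were in neither table, and the 5 in the mesoderm table summed to 11.1 to 12.2 CPM. Of 24 endoderm genes, SOX17, FOXA2 and CXCR4 were in neither table, as were PAX6 and SOX1 among 29 neuroectoderm genes. Members that could be tested moved in both directions: 3 streak genes rose and TBX6 fell, 2 endoderm genes rose and 3 fell, and 5 neuroectoderm genes rose and 3 fell. The neuroectoderm list, which holds NES and CDH2, summed to 873 to 906 CPM in hPSC and 1769 to 2078 CPM in mesoderm.

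Genes of amnion and trophoblast, the other fates known after BMP4, were also higher. Of 30 listed, 12 were tested: 9 rose, SDC1 fell and KRT7 and PGF did not pass, beside 35.3% of all genes higher and 35.5% lower. VTCN1, at or under 0.475 CPM in every hPSC nucleus library, passed the count filter through mesoderm, so a fall could not have been called for it. A further 16 were in the mesoderm table only, none in the hPSC table only, and CGB5 and XAGE2 in neither. The summed level of the list was 923 to 1132 CPM in hPSC and 6711 to 7510 CPM in mesoderm, more than the mesoderm list reached. GABRP, a GABA receptor subunit of amnion, went from 11.2, 11.3 and 10.8 to 376, 389.6 and 346 CPM, 33.4-fold (edgeR adjusted p = 1.92e-13), and VTCN1 from 0.475, 0.169 and 0.363 to 41.3, 47.5 and 42.7 CPM. The simple-epithelial keratins KRT8, KRT18 and KRT19 rose 7.74-fold, 5.48-fold and 4.72-fold, with many pseudogenes of KRT8 and KRT18 that can share reads. TFAP2A and GATA3, transcription factors of trophoblast and amnion listed in mesoderm only, stood at 77.02, 82.2 and 95.5 and 85.9, 88.9 and 96.3 CPM, and WNT6 and IGFBP5 averaged 174 and 339.6 CPM. Of the placental hormone and fusion genes, CGA averaged 0.727 and ERVW-1 0.444 CPM. Among others, HAND1, ISL1, CDX2 and BAMBI belong to both this list and another, so BAMBI is counted here and with the BMP genes. The part of other cell types in the results on mesoderm genes was not tested. In bulk RNA, fewer cells of a type and less RNA per cell cannot be told apart.

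**Figure D3:**
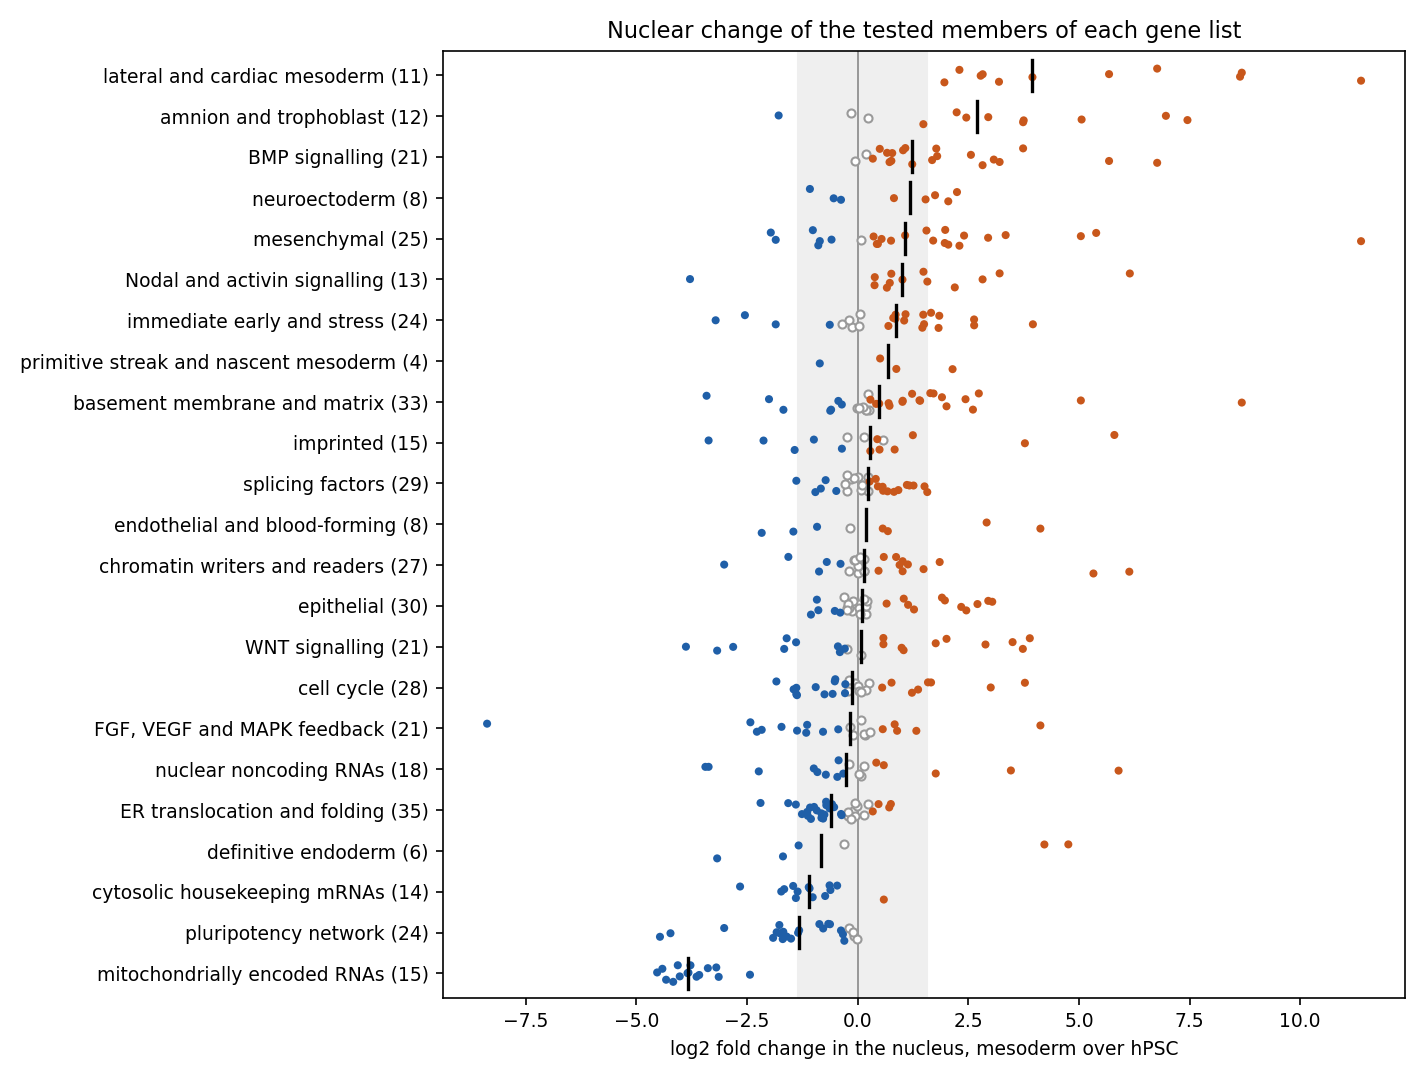
Log2 fold change, mesoderm over hPSC, of every tested member of each gene list (number tested in brackets), with a bar at the list's median and a band for the middle 80% of all genes. Orange points passed the test higher, blue points lower, and open points did not pass; all 15 mitochondrially encoded RNAs lie below the band and all 11 lateral mesoderm genes above it.

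Most tested genes of the BMP pathway, whose ligand was in the mesoderm medium, were higher, with the receptors mixed. The part of the added BMP4 in this was not tested. Of 33 listed genes 21 were tested: 19 rose, none fell and BMP7 (-0.05, SE 0.11) and ACVR1 (0.18, SE 0.13) did not pass, with a median log2 change of 1.23. Of all genes, 35.3% were higher and 35.5% lower. MSX2, for which a fall could not have been called, is among the 19. MSX2 and BMP4 are also counted in the lateral mesoderm list above, so the results of these lists are not independent. Of the ligands, BMP4 itself went from 4.67, 3.46 and 4.14 to 209.7, 211 and 212 CPM, 51.3-fold (edgeR adjusted p = 1.92e-13), and GDF6 was listed in mesoderm only at 222, 241 and 233 CPM. Of the receptors, BMPR2 rose 3.43-fold and BMPR1A 1.41-fold; on shared transcripts BMPR1A changed by 0.02 and did not pass (edgeR adjusted p = 0.855). ACVR1 was lower on shared transcripts, at -1.14 (edgeR adjusted p = 0.00562). SMAD1 and SMAD5, the signal carriers, rose 1.696-fold and 1.72-fold.

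Fold changes of the targets were mostly larger than those of the receptors, a difference that was not tested. ID1 went from 110.0, 99.5 and 119 to 329, 345 and 381 CPM, ID2 from 24.1, 17.8 and 19.4 to 65.5, 74.3 and 73.4 CPM and ID4 from 14.5, 11.2 and 12.1 to 103, 113 and 102 CPM, rises of 3.21-fold, 3.48-fold and 8.44-fold. ID3 rose only 1.27-fold (0.34 on the log2 scale, SE 0.10, edgeR adjusted p = 0.00839). The inhibitors rose beside them. SMAD7, which blocks the receptors from inside the cell, went from 5.38, 4.89 and 6.103 to 50.3, 50.03 and 51.7 CPM, BAMBI, a decoy receptor, from 16.5, 21.3 and 20.6 to 238, 279 and 265 CPM, and FST, follistatin, from 33.2, 32.3 and 33.9 to 234, 241 and 229 CPM. NOG, SMAD6 and GREM1 were listed in mesoderm only, averaging 34.5, 50.7 and 46.8 CPM.

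The 250 bases before a listed start of BAMBI and BMP4 are printed because these members rose most among the inhibitors and the ligands. Capitals stand at each GGCGCC, a palindrome that SMAD1 and SMAD5 are known to bind in BMP targets. Sequence is RefSeq's (GRCh38.p14), 5′ to 3′ on the gene's strand, for chr10:28677271-28677520 (plus) and chr14:53955051-53955300 (minus).
BAMBI: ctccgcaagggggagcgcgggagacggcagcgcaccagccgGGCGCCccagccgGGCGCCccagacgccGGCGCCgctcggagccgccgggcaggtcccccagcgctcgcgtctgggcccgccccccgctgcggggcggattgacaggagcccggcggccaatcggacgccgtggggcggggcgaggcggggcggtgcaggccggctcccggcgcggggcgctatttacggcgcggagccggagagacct
BMP4: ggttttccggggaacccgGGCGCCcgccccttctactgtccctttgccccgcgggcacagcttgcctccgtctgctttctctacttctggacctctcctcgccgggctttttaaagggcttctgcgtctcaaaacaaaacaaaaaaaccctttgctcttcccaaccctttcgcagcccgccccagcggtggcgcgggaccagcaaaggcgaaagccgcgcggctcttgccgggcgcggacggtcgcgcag
The BAMBI stretch holds 3 matches and the BMP4 stretch 1. The motif is common: over windows from 250 bases before to 50 after a start, it was in 38.2% of the 9491 tested genes with a promoter in the table, 39.9% of those higher in mesoderm, 37.2% of those lower, and 8 of the 19 BMP genes that rose. In these windows the BMP4 start shown held 2 matches and the other listed BMP4 starts 0. The targets ID1, ID2, ID3, ID4 and MSX2 and all listed SMAD7 starts also held 0. A match is a description of the letters, not a bound site.

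Of 23 Nodal and activin genes, 13 were tested and 7 were listed in the hPSC table only. TDGF1 and FOXH1, the Nodal coreceptor and its nuclear partner, were listed in the hPSC table only, FOXH1 at 186, 168 and 196 CPM, as were NODAL, LEFTY1 and LEFTY2 at averages of 2.64, 0.678 and 0.729 CPM. ACVR1B, the type I receptor ALK4, fell from 75.2, 94.6 and 100.2 to 5.78, 6.07 and 7.71 CPM, 13.8-fold, with no transcript in both tables. The other 12 of 13 tested genes rose, beside 35.3% of all genes. TGFB2, at or under 0.337 CPM in every hPSC nucleus library, passed the count filter through mesoderm, so a fall could not have been called for it. Among the ligands, TGFB2 went from 0.0791, 0.337 and 0.145 to 14.4, 12.5 and 14.2 CPM and TGFB1 from 13.2, 13.8 and 12.2 to 59.7, 48.5 and 71.01 CPM, and the receptor TGFBR2 and the carrier SMAD3 rose 2.804-fold and 2.98-fold.

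Of 21 tested FGF and VEGF genes, 10 fell, 5 rose and 6 did not pass, beside 35.5% of all genes lower and 35.3% higher (on uncentred TPM, 4 fell and 12 rose). The VEGF receptor FLT1 went from 136, 178 and 163 to 39.02, 35.7 and 31.2 CPM, 4.49-fold (log2 change -2.17, and -0.77 on shared transcripts), and its ligand VEGFA fell 3.29-fold, in cells whose medium held VEGF. FGFR1, the main FGF receptor of hPSC, fell 2.204-fold, FGF2 stood in the hPSC table only at 119, 129 and 119.6 CPM and FGFR3 in the mesoderm table only at 386, 321 and 396 CPM. FGFR2 changed by 0.16 (SE 0.11) on all transcripts and rose by 1.48 on shared ones (edgeR adjusted p = 6.73e-05). The ERK phosphatase DUSP6 rose 2.51-fold. NRP1, a VEGF coreceptor, rose 17.5-fold on all transcripts, and by 0.35 on the log2 scale, without passing, on shared ones.

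WNT genes moved in both directions, 10 of 21 higher and 9 lower (15 and 5 on uncentred TPM), beside 35.3% of all genes higher and 35.5% lower. SFRP1, a secreted WNT inhibitor, fell from 1692, 1755 and 1914 to 247, 258 and 258 CPM, 7.02-fold (edgeR adjusted p = 3.17e-11), and the feedback target AXIN2 fell 3.16-fold (a rise of 0.63 on the log2 scale with uncentred TPM). The receptors FZD2 and FZD6 rose 3.397-fold and 4.02-fold. LRP6, a coreceptor most cells use, was listed in mesoderm only at 144 CPM, and has no fold change.

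Matrix genes took more of the RNA of mesoderm nuclei: the list summed to 12948.5 to 16751 CPM in hPSC and 37433 to 46259 CPM in mesoderm. FN1, fibronectin (chr2:215360440-215436172, minus strand), stood at 489, 634 and 544 CPM in hPSC and 21864, 17116 and 15974 CPM in mesoderm, 32.98-fold (log2 change 5.04, SE 0.16, edgeR adjusted p = 2.34e-12), the most abundant RNA by count of the mesoderm libraries. Per length, FN1 rose from 79.4 to 5021 TPM, a measure that allows for transcript length. Tenascin TNC went from 21.5, 23.6 and 24.2 to 1099, 932 and 877 CPM, 41.9-fold. The laminins LAMB1 and LAMA5 rose 6.09-fold and 3.75-fold, COL5A1 7.72-fold and COL1A1 2.104-fold. Of 33 tested genes of basement membrane and matrix, 19 rose, 7 fell and 7 did not pass (28 rose and 3 fell on uncentred TPM). Of 25 mesenchymal genes, 18 rose and 6 fell. Both stand beside 35.3% of all genes higher and 35.5% lower.

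Not every mesenchymal gene was higher. COL6A1, a chain of type VI collagen, fell 3.61-fold and THY1, the surface protein CD90, went from 486, 512 and 571 to 134, 129 and 140.3 CPM, 3.895-fold, with its sign turned on uncentred TPM (0.25). VIM, vimentin, rose 5.296-fold and CDH2, N-cadherin, 4.14-fold. VCAN, versican, rose 6.67-fold on all transcripts but was lower on shared ones, at -1.39 on the log2 scale (edgeR adjusted p = 2.59e-04).

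Epithelial genes did not fall as a group. Of 30 tested, 11 rose, 5 fell and 14 did not pass, beside 35.3% of all genes higher and 35.5% lower. The median was 0.09, and on uncentred TPM 27 rose and 1 fell. CDH1, E-cadherin, was at 1217, 1472 and 1433 CPM in hPSC and 1304, 1227 and 1243 CPM in mesoderm, with overlap and a log2 change of -0.13 (SE 0.12, edgeR adjusted p = 0.343), and 0.81 on uncentred TPM. EPCAM rose 2.06-fold, the desmosome genes DSP and PKP2 6.53-fold and 8.23-fold, and GRHL2, an epithelial transcription factor, 5.07-fold. TJP1, a tight junction scaffold, rose 3.92-fold. The claudins CLDN3 and CLDN7 fell 2.08-fold and 1.85-fold (CLDN7 changed by 0.0612 on uncentred TPM), and CLDN6 (-0.30, SE 0.13) and OCLN (0.04, SE 0.12) did not pass. The tested amnion and trophoblast markers above, a mixed list that holds epithelial keratins but also EPAS1, BAMBI and PGF, had a median log2 change of 2.70. That of the epithelial list was 0.09. The part of amnion-like or trophoblast-like cells in the epithelial list was not tested.

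Of 28 cell cycle genes 12 fell and 8 rose, beside 35.5% and 35.3% of all genes (5 and 21 on uncentred TPM). E2F1, a factor of S-phase entry, fell 3.57-fold and MCM5, of the replication helicase, 2.72-fold. The D-type cyclin kinase CDK6 went from 8.31, 8.097 and 9.66 to 66.3, 60.7 and 83.003 CPM and TOP2A rose 3.01-fold. CCNB1 was at 168 and 168 CPM on average and did not pass. Among chromatin genes, KDM6B and TET2, demethylases of histone H3 and of DNA, rose from 0.316, 0.928 and 1.31 to 64.2, 53.3 and 66.4 and from 0.633, 0.169 and 0.0727 to 12.2, 12.4 and 11.4 CPM, each with no shared transcript. HMGA1, an architectural protein abundant in stem cells, fell 2.96-fold. UHRF1, which guides maintenance of DNA methylation, fell 1.62-fold on all its transcripts and showed a log2 change of -11.97 on shared ones and of 0.22 on uncentred TPM. Of 29 splicing factors, 13 rose and 5 fell (25 and 1 on uncentred TPM), beside 35.3% and 35.5% of all genes. CLK1, a kinase of SR proteins, rose 2.98-fold, RBM5 2.85-fold and SRSF11 2.3998-fold, while SRSF3 and HNRNPA1 fell 2.61-fold and 1.94-fold.

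Immediate early and stress genes were higher in 15 of 24 and lower in 4, with a median of 0.86, beside 35.3% of all genes higher and 35.5% lower. JUN, an AP-1 subunit, went from 11.6, 8.94 and 8.79 to 142, 153 and 162 CPM, 15.6-fold (edgeR adjusted p = 3.14e-12), and its partner FOS 3.55-fold. GADD45A and GADD45B, induced by DNA damage and TGF-β, rose 6.196-fold and 6.202-fold, and the cell cycle inhibitor CDKN1A 3.16-fold. The heat shock genes HSPA1A and HSPA1B, near-identical copies whose reads cannot be split safely, rose 1.81-fold and 2.12-fold. DDIT4, an inhibitor of mTORC1, fell 9.24-fold. MYC changed by -0.13 (SE 0.11) on all transcripts and rose by 0.41 on shared ones (edgeR adjusted p = 0.0175).

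Of 14 housekeeping mRNAs, 13 were lower in mesoderm nuclei and ACTB was higher, by 1.51-fold; on uncentred TPM, 6 were lower and 2 higher. GAPDH went from 3608, 2452 and 3097 to 946, 991 and 963 CPM, 3.16-fold, and LDHA, also of glycolysis, fell 6.303-fold. RPLP0, a ribosomal protein, fell 3.31-fold and EEF1A1, the elongation factor, 1.66-fold (0.19 on the log2 scale with uncentred TPM). Of 18 noncoding RNAs of the nuclear list, 5 rose and 9 fell (9 and 7 on uncentred TPM), beside 35.3% and 35.5% of all genes. MALAT1 went from 81.8, 109 and 86.03 to 237, 272 and 432 CPM, NEAT1, the scaffold of paraspeckles, from 1.19, 1.94 and 1.02 to 72.8, 57.98 and 114 CPM and FTX from 14.2, 18.05 and 12.8 to 161, 107 and 226 CPM. For all 3 the spread between mesoderm libraries was wide, with replicate 3 highest. OIP5-AS1 fell 4.702-fold.

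Mitochondrially encoded RNAs had the lowest median of the lists. All 15 tested were lower in mesoderm nuclei (also with library totals, upper-quartile factors and DESeq2), with a median log2 change of -3.82 and a range from -4.53 to -2.43; on TPM, 14 fell and MT-ATP8 did not pass. MT-CO1, a subunit of cytochrome c oxidase, stood at 41767, 43953 and 50961 CPM in hPSC and 3683, 3699 and 4053 CPM in mesoderm, 11.95-fold (log2 change -3.58, SE 0.12, edgeR adjusted p = 2.73e-12). MT-CO2 fell 23.1-fold, MT-RNR2, the large ribosomal RNA, 8.81-fold and MT-ND5 5.396-fold. Such RNAs made up 13.1% to 15.3% of the counts of hPSC nuclei and 1.11% to 1.36% of those of mesoderm nuclei, with no overlap.

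In the cytoplasm the order was the reverse: 0.399% to 0.615% of counts in hPSC and 5.83% to 7.46% in mesoderm. The median change of the 15 genes was 4.01 in the cytoplasm and -1.09 on chromatin. These RNAs thus took the larger share in the nucleus in hPSC and in the cytoplasm in mesoderm. Their share of the libraries moved beside every nuclear comparison here, and leaving the mitochondrial genes out of the fit changed the count of called genes from 8624 to 8610. In the comparisons with the other fractions, given below, leaving them out moved the split of higher and lower differences from 631 and 1778 to 1004 and 1166 for the cytoplasm and from 25 and 17 to 40 and 12 for chromatin.

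**Figure D4:**
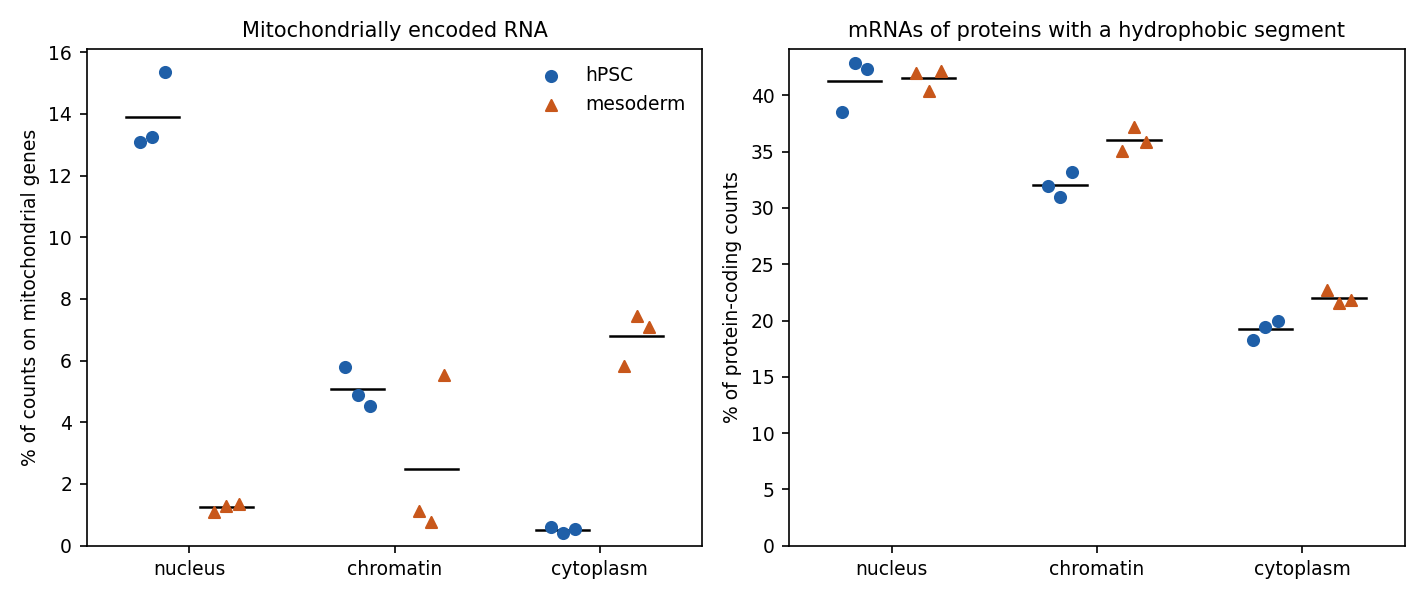
Left, share of all counts on mitochondrial genes; right, share of protein-coding counts on mRNAs of proteins with a hydrophobic segment, in each hPSC (circles) and mesoderm (triangles) library of 3 fractions, with bars at the means. The mitochondrial share falls from hPSC to mesoderm in the nucleus and rises in the cytoplasm, while the segment share is near 40% in nuclei of both cell types and near 20% in both cytoplasms.

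Both sets of nuclei were rich in mRNAs of proteins with a hydrophobic segment. Proteins were sorted by whether any 19-residue window reached a mean Kyte-Doolittle hydropathy of 1.6, a usual sign of a signal peptide or membrane segment. Their mRNAs took 38.5% to 42.9% of the protein-coding counts of hPSC nuclei and 40.4% to 42.2% in mesoderm nuclei, ranges that overlap. In the cytoplasm the share was 18.3% to 20.0% and 21.5% to 22.7%. From nucleus to cytoplasm the median mRNA with a segment changed by -0.97 on the log2 scale in hPSC and by -0.70 in mesoderm, against 0.29 and 0.29 for mRNAs without one. Some secreted proteins miss the minimum: FN1 reached only 1.41 and counts as without a segment. Its mRNA was still higher in the nucleus, at 491 plain CPM in the hPSC nucleus and 17.4 in its cytoplasm, and 18348 and 1144 in mesoderm.

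The change from hPSC to mesoderm in the nucleus was similar for both kinds of mRNA at this minimum. Its median was -0.04 over 3703 genes with a segment and -0.004 over 7484 without, a difference of -0.03, smaller than the 0.07 by which that difference varied between libraries of a group (SD). With a stricter minimum of 1.8 the difference was -0.09, larger than that SD. The SD is of single libraries, not of a difference between group means. In the cytoplasm the difference was 0.29 and on chromatin 0.14. The machinery of the ER itself was lower: of 35 genes of translocation and folding, 22 fell, 4 rose and 9 did not pass, with a median of -0.60 (on uncentred TPM, 2 fell and 16 rose). Of all genes, 35.5% were lower and 35.3% higher. SEC11C, of the signal peptidase, fell 4.57-fold, the retrieval receptor KDELR1 2.204-fold and the chaperone CALR 1.63-fold (0.20 on the log2 scale with uncentred TPM). HSPA5, the chaperone BiP, was at 1207, 1573 and 1426 and 1577, 1698 and 1358 CPM, and changed by 0.14 (SE 0.13). HSP90B1 and SSR1 rose 1.39-fold and 1.68-fold, SSR1 with a change of -0.90 on centred TPM.

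Whether the nuclear change differed from that on chromatin, a subfraction of the nucleus, was tested over 18 libraries. It did for 42 of 12376 genes (0.339%), 25 with a higher change in the nucleus (0.202%) and 17 with a lower one (0.137%). With library totals alone the split was 66 and 11, with DESeq2 101 and 129, and on TPM 2243 and 41 uncentred and 47 and 93 centred. JUN led in certainty: its change was 2.12 higher in the nucleus on the log2 scale (SE 0.24, edgeR adjusted p = 4.29e-04). In plain CPM, JUN was at 10.5, 7.84 and 7.67 in hPSC nuclei and at 39.1, 42.1 and 42.9 on hPSC chromatin, while mesoderm held 136 to 167 and 112 to 176. PHLDA2, an imprinted gene of placental growth (2.44), the neurofilament NEFH (2.37) and the chemokine CX3CL1 (1.89) followed. The largest differences the other way were MT-CO2 (-3.69), TCTN2 (-3.48), XYLT1, which starts proteoglycan chains (-2.87), and the unnamed genes ENSG00000284461 (-2.58) and ENSG00000224905 (-1.705).

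That count depended on single libraries. Without replicate 3 of hPSC chromatin 646 genes differed, without replicate 3 of mesoderm chromatin 515, and without both 3058, an alternative chosen after seeing the data. Mesoderm chromatin replicate 3 held 5.53% mitochondrial counts against 1.12% and 0.769% in the others. JUN, PHLDA2, TCTN2, XYLT1, NEFH and ENSG00000284461 were called in each of the 12 fits that leave out 1 library, MT-CO2 in 4, ENSG00000224905 in 5 and CX3CL1 in 2.

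Against the cytoplasm the nuclear change differed for 2409 of 12376 genes (19.5%), 631 higher in the nucleus (5.10%) and 1778 lower (14.4%). That split turned with the scaling: with library totals alone 1609 were higher and 686 lower, and with DESeq2 1424 and 1432, and on TPM 4471 and 167 uncentred and 912 and 1106 centred. Without replicate 3 of hPSC nuclei 1298 genes differed, without mesoderm nucleus replicate 1 1534, and without hPSC cytoplasm replicate 2 or 3, 1602 and 1574. All 15 mitochondrial RNAs were among those lower in the nucleus, with a difference of -9.39 on the log2 scale for MT-ATP6 (SE 0.74, edgeR adjusted p = 1.67e-06), -9.02 for MT-ND3 and -8.900 for MT-CO2. MT-ATP8, which overlaps MT-ATP6 and shares its reads, differed by -9.904. Of the 35 ER genes, 19 were lower in the nucleus and none higher; KDELR1 fell in the nucleus (-1.14) and was higher in the cytoplasm (1.21). Of 29 splicing factors, 12 were higher in the nucleus and 1 lower.

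Other named differences from the cytoplasm rest on genes whose transcripts differ between the tables. RPS6KA3 and DYRK1A, kinases of growth and neural development, were lower in mesoderm, with log2 changes of -2.87 and -4.03 in the nucleus and -10.23 and -9.17 in the cytoplasm, with no shared transcript. The small nucleolar RNA genes SNORD116-6 and SNORD116-4 differed by 7.28 and 4.27. The unnamed gene ENSG00000277067 differed by 8.08, and ENSG00000280800 by -11.08 (SE 2.92); the latter stood at 30.9, 140.0 and 14.1 CPM in hPSC nuclei and 0, 1672 and 0 CPM in mesoderm nuclei, so 1 library sets its level. MALAT1 was higher in mesoderm in the nucleus (1.76) and at -0.52 in the cytoplasm, and NEAT1 rose in both (5.90 and 3.49).

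**Figure D5:**
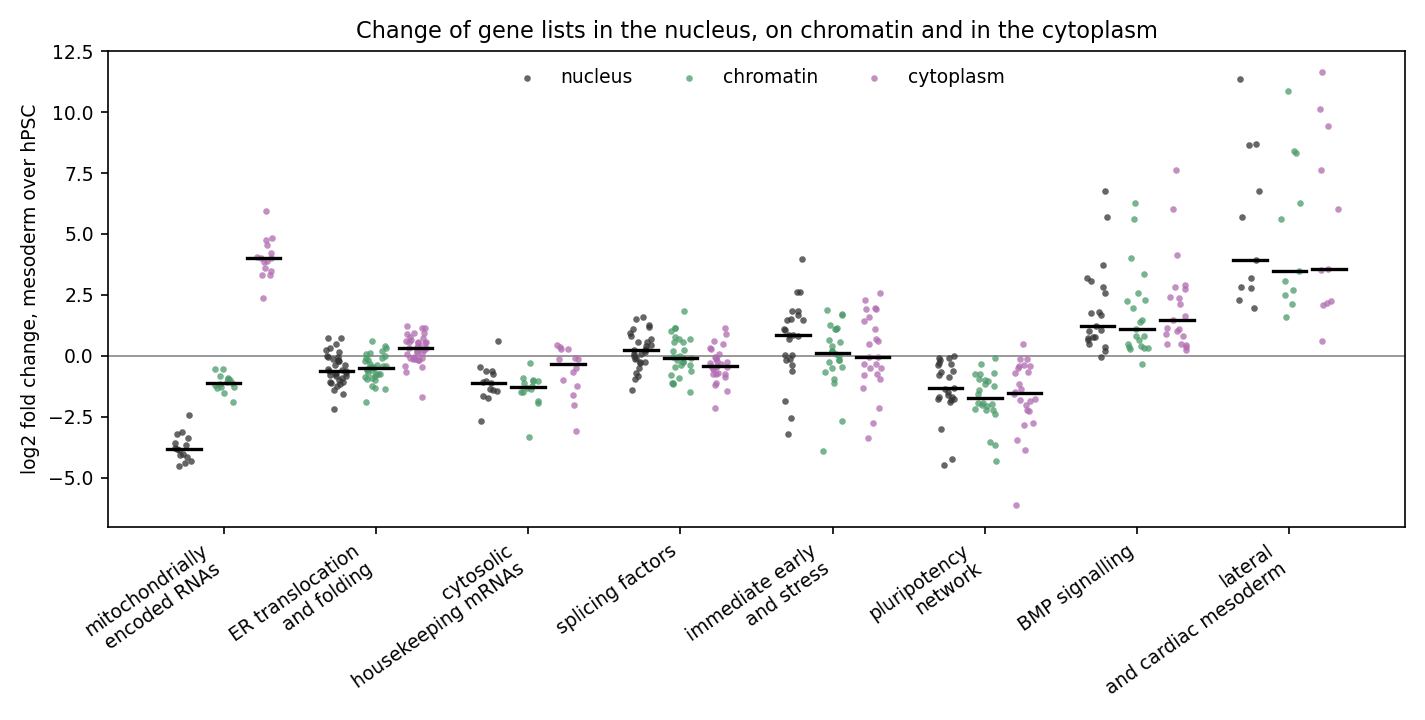
Log2 fold change, mesoderm over hPSC, of the tested members of 8 gene lists in the nucleus, on chromatin and in the cytoplasm, with a bar at each median. The mitochondrial RNAs fall in the nucleus (median -3.82) and rise in the cytoplasm (4.01), while the pluripotency, BMP and mesoderm lists lie at similar levels in the 3 fractions.

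Some genes could be read in 1 cell type only. By level in their nuclei, the first 8 of the 2634 genes listed only in hPSC were ENSG00000278996, the mitochondrial tRNA gene MT-TP, ENSG00000274090, SEMA3E, TDGF1, ENSG00000289894, ENSG00000260834 and ENSG00000286279. SEMA3E, a repulsive guidance cue for vessels and axons, stood at 920.0, 615 and 679 CPM, and ENSG00000278996 varied between libraries, at 1311, 4176 and 1028 CPM. Of the 2527 listed only in mesoderm, the first 8 were RNA5-8SN4, PRTG, IGFBP7, FGFR3, IGFBP5, CRIM1, GDF6 and ANXA1. RNA5-8SN4, a copy of the 5.8S ribosomal RNA gene, stood at 5543, 1226 and 71.4 CPM, a spread that sets it apart from the rest. PRTG, protogenin, a surface protein of early paraxial tissue, was at 983, 981 and 1209.6 CPM, and IGFBP7, a secreted binding protein, at 528, 541 and 541 CPM.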

How the data were processed

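RNA of nuclei, chromatin and cytoplasm of H1 hPSC and of mesoderm derived from them was sequenced; samples were grouped by the cell type and fraction in their labels. The authors deposited expected counts per transcript, whole numbers in the files, and TPM per transcript, one pair of files per cell type; STAR, RSEM and hg38 are named in the submitters' processing notes, and versions and strandedness are not given in the sources used here. Counts and TPM were summed per Ensembl gene and the tables joined; 0.95% to 5.54% of the nucleus counts were on no gene and left out. One column of the files used matched no sample.

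Genes were tested with edgeR 4.0.16 (R 4.3.3; TMM, filterByExpr with a minimum count of 10, quasi-likelihood F test, Benjamini-Hochberg), on the 6 nucleus libraries, and for differences between fractions on 18 libraries with an interaction term. Changes within the nucleus are from the 6-library fit, and those on chromatin and in the cytoplasm from the 18-library fit. They therefore do not subtract exactly to the differences between fractions. The SE is the log2 change divided by the square root of F. A fold against a group at or under 3 counts per library is a lower bound. Alternatives were library totals, upper-quartile factors, DESeq2 1.42.0, no filter, transcripts in both tables, no mitochondrial genes, limma-trend 3.58.1 on log2(TPM + 1), the replicate block, a fit over 4 cell types, a 2-fold rule and leaving out each library. On simulated counts over 11929 genes for the nucleus comparison, edgeR recovered 98% of 2-fold and 100.0% of 4-fold changes. Only 100 genes per fold were changed, none at low levels, and both groups had the same transcript list. Recovery in the real data may therefore differ. Hydropathy was computed on GENCODE 29 coding sequences, not RefSeq proteins as planned; mitochondrial genes were left out of it.

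The genes named were the 12 largest called rises and 12 falls with a symbol, a mean of at least 10 CPM in the higher group and no overlap; members of 24 gene lists; the 8 highest genes of each table alone; and 5 per direction for each fraction difference. Some genes that these rules name are not reported here. Members and lists were chosen with earlier results of these data known.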

Additional observations from a re-analysis of the deposited data

Results flagged for a closer look

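The change from hPSC to mesoderm differed between fractions for the genes below, by an interaction term tested with edgeR over 18 libraries; values are log2 changes in the nucleus minus those in the other fraction, with the SE. Against chromatin, JUN was at 2.12 (SE 0.24), PHLDA2 at 2.44 (0.33), NEFH at 2.37 (0.41) and CX3CL1 at 1.89 (0.38), all higher in the nucleus. PHLDA2 and NEFH fell on chromatin, by log2 changes of -2.03 and -3.22, and changed by 0.57 and -0.70 in the nucleus. Lower in the nucleus than on chromatin were MT-CO2 at -3.69 (0.76), TCTN2 at -3.48 (0.56), XYLT1 at -2.87 (0.46), ENSG00000284461 at -2.58 (0.41) and ENSG00000224905 at -1.705 (0.36). The edgeR adjusted p ranged from 4.29e-04 for JUN to 0.0468 for ENSG00000224905.

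Against the cytoplasm, lower in the nucleus were the mitochondrial MT-ATP8 at -9.904 (1.33), MT-ATP6 at -9.39 (0.74), MT-ND3 at -9.02 (1.102) and MT-CO2 at -8.900 (0.85), KDELR1 at -2.51 (0.24) and ENSG00000280800 at -11.08 (2.92). Higher in the nucleus were ENSG00000277067 at 8.08 (1.798), SNORD116-6 at 7.28 (2.02), RPS6KA3 at 7.196 (1.26), DYRK1A at 4.98 (0.83), SNORD116-4 at 4.27 (0.86), NEAT1 at 2.25 (0.43), MALAT1 at 2.13 (0.402) and JUN at 1.22 (0.24). JUN thus differed from both fractions in the same direction. The edgeR adjusted p ranged from 1.67e-06 for MT-ATP6 to 0.0201 for SNORD116-6. ENSG00000280800, ENSG00000277067, SNORD116-6, RPS6KA3 and DYRK1A changed by over 9 on the log2 scale in 1 of the fractions, from or to a level near 0, so these sizes depend on the prior count.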

How the results depend on the processing

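Of 12179 genes, 8624 differed between mesoderm and hPSC nuclei, and 4051 when a 2-fold change was also asked for. The count stayed within 1.5 times under the other settings run: 8509 with library totals, 8698 with upper-quartile factors, 8422 with DESeq2, 8691 without the filter, 5893 (of 9724) on shared transcripts, 8610 without mitochondrial genes, 9506 on uncentred and 8421 on centred TPM, 5750 (of 10655) in a fit over 4 cell types, and 7954 to 8460 with 1 library left out. The difference from chromatin, 42 genes, moved to 77 with library totals, 230 with DESeq2, 2284 on uncentred and 140 on centred TPM and 3058 without chromatin replicate 3 of both cell types, and ranged from 21 to 646 with 1 library left out. Besides the 2 chromatin libraries named above, it moved by over 1.5 times without hPSC nucleus replicate 1 (23) or 2 (24), hPSC chromatin replicate 1 (24) or 2 (27), and mesoderm nucleus replicate 2 (21). The difference from the cytoplasm, 2409 genes, moved to 1501 on shared transcripts (fewer genes tested), 4638 on uncentred TPM and 1420 with the 2-fold rule, and ranged from 1298 to 2516 with 1 library left out. TPM centring and the joint removal of chromatin replicates were chosen after seeing the data.

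With the replicate block, 8146 genes differed in the nucleus (4069 higher, 4077 lower), 32 from chromatin and 2243 from the cytoplasm. Libraries of the same number formed a block across both cell types and all fractions. Pairs of fractions within a cell type were not modelled, so dependence of the fraction differences on such pairs was not tested. Nucleus libraries of the 2 cell types that share a number did not deviate together (r of -0.159, -0.182 and -0.0166 for replicates 1, 2 and 3). Within a cell type, r between nucleus libraries and the chromatin or cytoplasm library of the same number ran from -0.248 to 0.16. The numbers were therefore not taken as pairs. Among the named genes, the block ended the call of GNAS only (log2 change 0.29, edgeR adjusted p = 0.0786).

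Among the log2 changes of the named genes under these settings, 2707 kept their direction and their side of the threshold, 33 no longer passed, 23 passed anew and 33 turned in sign. On shared transcripts the sign turned for ACVR1 (-1.14), ESRP1 (0.48), GNAS (-1.47), LIN28B (1.30), MYC (0.41) and VCAN (-1.39), in log2 units. On uncentred TPM it turned for AXIN2 (0.63), BMP7 (0.69), CALR (0.20), CCNB1 (0.90), CDH1 (0.81), CLDN6 (0.63), CLDN7 (0.0612), CX3CL1 (0.14), EEF1A1 (0.19), ESRP1 (0.75), JARID2 (0.88), L1TD1 (0.60), LIN28B (0.61), MT-ATP8 (2.03), MYC (0.79), NEFH (0.48), PODXL (2.12), SALL4 (0.37), THY1 (0.25), TUBB3 (0.39), UHRF1 (0.22) and ZFP42 (0.25). On centred TPM it turned for PODXL (1.21), MT-ATP8 (1.13), SSR1 (-0.90) and ENSG00000284461 (-0.32). With 1 library left out, ENSG00000280800 (3.18 with all) ranged from -12.55, without mesoderm nucleus replicate 2, to 4.63. The cause was not tested. With 3 libraries a group and separate assemblies, genes at a few reads, and genes with no shared transcript, are the least certain.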

Other observations

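Imprinted genes, which are expressed from 1 parental copy and many of which control growth, moved in both directions. Of 24 listed, 15 were tested in the nucleus: 7 rose, 5 fell and 3 did not pass (edgeR adjusted p under 0.05), beside 35.3% and 35.5% of all genes; on uncentred TPM 11 rose and 3 fell. IGF2, a fetal growth factor, went from 0.554, 0.337 and 0.581 CPM in hPSC to 27.8, 19.6 and 36.97 CPM in mesoderm, 55.8-fold (edgeR adjusted p = 4.21e-10), and by 5.93 on the log2 scale on shared transcripts. At these hPSC levels IGF2 passed the count filter through mesoderm, so a fall could not have been called for it. H19, the noncoding RNA beside it, was listed in the mesoderm table only, at 22.3, 37.5 and 26.01 CPM. CDKN1C, a cell cycle inhibitor, went from 1.82, 1.77 and 1.45 to 18.7, 23.9 and 27.1 CPM, 13.7-fold, and PEG10, a placental gene of retrotransposon origin, rose 1.79-fold. NNAT, neuronatin, fell from 52.1, 41.1 and 57.4 to 9.79, 13.6 and 11.5 CPM and SNRPN from 752, 575 and 683 to 233, 272 and 246 CPM, and the groups overlapped in neither. GNAS, whose locus gives overlapping transcripts, changed by 0.29 on all transcripts (edgeR adjusted p = 0.0496) and by -1.47 on shared ones (edgeR adjusted p = 1.10e-05), and its call was lost under several other settings.

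Some genes listed as markers of other germ layers were higher in mesoderm nuclei. NES, the intermediate filament nestin, went from 428, 494 and 469 to 1291, 1502 and 1237 CPM, MAP2 rose 4.74-fold and SOX3 1.77-fold, while TUBB3 fell 1.45-fold (0.39 on the log2 scale with uncentred TPM). RHOBTB3, on the endoderm list, went from 11.3, 10.96 and 9.16 to 270.3, 285 and 296 CPM, with no transcript in both tables, and FRZB, a WNT antagonist, and KIT, a receptor kinase, fell 9.02-fold and 3.22-fold. CYP26A1, which degrades retinoic acid, rose 4.42-fold, from 29.2, 29.9 and 36.04 to 129, 157 and 136 CPM. EFNB2, an arterial ephrin, rose 7.54-fold and EGFL7, an endothelial matrix protein, fell 2.74-fold. Of 534 long noncoding RNAs tested, 161 rose and 152 fell, beside 35.3% of all genes higher and 35.5% lower. In either direction 58.6% of them were called, against 70.8% of all genes.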
